A study of Homo sapiens with 12 samples.

Results

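The 45 genes described here encode the machinery of mitosis and the spindle: the kinases, cyclins and phosphatases of mitotic entry, the Aurora kinases and the chromosomal passenger complex, the spindle checkpoint, kinetochore proteins, kinesin motors, proteins of spindle organisation and cytokinesis, and regulators of mitotic exit, with TOP2A, MKI67 and FOXM1. They were chosen by symbol, as a list of mitotic and spindle genes, out of 24528 genes in the count table, with earlier results of these data known. All 45 were found and all 45 passed the filter on low counts that left 15021 genes to test. RNA was sequenced from MIA PaCa-2 cells, an established human pancreatic carcinoma line, in 4 groups of 3 libraries. Msi1 knockdown cells carried a lentiviral short hairpin RNA (shRNA) against Musashi1 with a GFP tag, Msi2 knockdown cells carried one against Musashi2 with a Tomato Red tag, and double knockdown cells were positive for both tags. Control shRNA cells carried a scrambled sequence. All groups were the same line, infected for 72 hours and then sorted on fluorescence. The sources used here do not give the tag and gate of the control cells, nor whether replicates were separate cultures, so the p-values reflect the spread among these samples, part of which may be technical.

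Mitosis begins when cyclin B and CDK1 form an active kinase, which CDC25 phosphatases switch on and which PLK1 and the Aurora kinases act beside. The spindle checkpoint holds the anaphase-promoting complex until kinetochores are attached, after which CDC20 and the ubiquitin-conjugating enzymes UBE2C and UBE2S help to drive the destruction of cyclin B and securin. Many of these genes are transcribed late in the cell cycle through promoter elements called CHR and CCAAT boxes, bound by the MuvB complex with B-MYB and FOXM1 and by NF-Y. The Musashi proteins bind mRNAs and regulate how they are translated and how long they last.

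The promoters of 4 members are printed because these members had the smallest p among called members of the promoter table in 1 direction of at least 1 comparison with control: PRC1 (higher in both single knockdowns), INCENP (lower in the Msi1 knockdown), TOP2A (lower in the Msi2 knockdown) and UBE2S (higher in the double knockdown). Each runs from 250 bases before the RefSeq start to 50 after it (GRCh38.p14), 5′ to 3′ along the gene. Capitals mark the CHR core TTTGAA and the CCAAT box, on either strand, so that TTCAAA and ATTGG are the same motifs read on the opposite strand.
PRC1, chr15:90994486-90994785, minus strand: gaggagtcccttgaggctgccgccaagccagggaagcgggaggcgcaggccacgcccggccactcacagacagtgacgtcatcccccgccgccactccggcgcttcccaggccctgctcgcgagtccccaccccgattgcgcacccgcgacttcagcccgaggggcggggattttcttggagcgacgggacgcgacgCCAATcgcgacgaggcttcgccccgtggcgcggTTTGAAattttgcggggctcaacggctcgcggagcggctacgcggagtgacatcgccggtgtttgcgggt
INCENP, chr11:62123761-62124060, plus strand: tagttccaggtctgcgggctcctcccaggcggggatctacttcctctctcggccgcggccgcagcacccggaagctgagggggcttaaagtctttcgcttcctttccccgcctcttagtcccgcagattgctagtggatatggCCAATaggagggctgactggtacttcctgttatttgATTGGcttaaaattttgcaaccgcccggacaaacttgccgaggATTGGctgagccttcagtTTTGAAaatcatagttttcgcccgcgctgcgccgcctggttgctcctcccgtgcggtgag
TOP2A, chr17:40417847-40418146, minus strand: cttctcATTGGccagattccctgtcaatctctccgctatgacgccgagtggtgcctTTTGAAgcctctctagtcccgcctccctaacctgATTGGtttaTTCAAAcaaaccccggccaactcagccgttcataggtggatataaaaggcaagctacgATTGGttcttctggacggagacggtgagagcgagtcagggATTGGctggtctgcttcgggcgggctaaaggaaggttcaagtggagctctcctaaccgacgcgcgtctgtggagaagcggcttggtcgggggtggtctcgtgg
UBE2S, chr19:55407739-55408038, minus strand: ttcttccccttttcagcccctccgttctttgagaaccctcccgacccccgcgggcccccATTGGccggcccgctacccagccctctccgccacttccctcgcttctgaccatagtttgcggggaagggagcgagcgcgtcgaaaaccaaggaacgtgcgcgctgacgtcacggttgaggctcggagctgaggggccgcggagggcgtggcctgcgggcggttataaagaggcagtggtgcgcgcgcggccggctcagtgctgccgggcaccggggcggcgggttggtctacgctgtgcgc
PRC1 has 1 TTTGAA, 20 to 15 bases before the start, and 1 CCAAT, 53 to 49 bases before it. INCENP has 1 TTTGAA and 3 CCAAT boxes, and TOP2A has 2 TTTGAA and 4 CCAAT boxes. UBE2S has 1 CCAAT box, and TTTGAA is not in this window. Over the 39 members found in the RefSeq promoter table, 28 (71.8%) had TTTGAA in at least 1 window, 32 (82.1%) had CCAAT and 23 (59.0%) had both. Counted by gene in the same way, the shares among the 11873 tested genes in that table were 13.7%, 42.4% and 7.29%. By window, since some genes have several starts, TTTGAA was in 31 of 49 member windows (63.3%), against 15.2% of all 35114 promoters of the same length. CCAAT was in 75.5% of member windows, against 34.6% of all promoters, and both motifs were in 51%, against 5.9%. A match is a description of these letters and not a binding site. FOXM1, TPX2, BIRC5, UBE2C, TTK and AURKA were not matched in the table.

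Total estimated counts ran from 10948191 to 56122207 per library, and member counts from 235 to 26068 per library. The targeted genes followed the labels: in counts per 1000000 (CPM), MSI1 averaged 1.84 ± 0.192 in Msi1 knockdown and 1.71 ± 0.284 in double knockdown libraries, against 4.53 ± 0.399 in control libraries. MSI2 averaged 15 ± 2.36 CPM in Msi2 knockdown and 11.8 ± 0.619 CPM in double knockdown libraries, against 82.7 ± 3.09 CPM in control libraries (SD, n = 3 each). MSI2 was also lower in the Msi1 knockdown (54.0 CPM, log2 change −0.61 ± 0.08, edgeR adjusted p = 6.82e-06), and MSI1 was higher in the Msi2 knockdown (6.14 CPM, 0.41 ± 0.13, adjusted p = 0.0244), a call lost without Msi2 replicate 1, control replicate 2 or control replicate 3. Within a group, the libraries differed most along 1 direction that held 54.1% of the within-group variance. The position of each library on it, in SD over the 12 libraries, was 1.06 to 1.54 in the double knockdown and −1.38 to 0.39 in the other 9 libraries, so the effect of the double knockdown and this direction cannot be fully told apart. With that position as a covariate, 31 members were called higher and 1 (NUSAP1) lower in the double knockdown against control. The direction was taken from these same counts, so as a covariate it takes up within-group spread by construction. A call gained with it is therefore not added support. Of the 5 markers listed for the carcinoma line (KRT8, KRT18, VIM, EPCAM and CDH1), EPCAM was below 1 CPM in every library, and the 5 summed to 7120 to 9390 CPM. Of the 4 tested, 0 were called in the Msi1 knockdown, 1 was lower in the Msi2 knockdown and 2 were higher in the double knockdown. Of 8 blood cell markers, 5 were below 1 CPM in every library, CD3E among them at 0. Their sum per library was 37.1 to 43.5 CPM (Msi1 knockdown), 46.8 to 47 CPM (Msi2 knockdown) and 48.5 to 52.7 CPM (double knockdown), against 17.3 to 19.9 CPM (control), and of the 4 tested only the macrophage marker CD68 was called (log2 changes 1.20, 1.45 and 1.54), while LYZ, ITGAM and HBA1 were not called in any knockdown. Of 6 endothelial markers 4 were below 1 CPM in every library, with sums of 27.6 to 34.6 CPM (Msi1 knockdown), 13.2 to 13.7 CPM (Msi2 knockdown) and 20.5 to 22.9 CPM (double knockdown), against 7.37 to 8.63 CPM (control), and of the 3 tested CDH5 was called higher in each knockdown (log2 changes 2.26, 0.97 and 1.71), PECAM1 was at −0.20, −0.53 and −0.69 and was called lower in the double knockdown, and VWF was not called. Of 5 neuronal genes of virus packaging cells, NEFL, NEFM, INA (at 0) and STMN2 were below 1 CPM in every library, so their sum was nearly that of GAL alone, at 38.2 to 42.7, 37.7 to 44.8 and 52.5 to 57.4 CPM in these knockdowns, against 29.3 to 32.7 CPM in control. The 8 fibroblast markers, 4 of them below 1 CPM, summed to 660 to 804, 775 to 887 and 549 to 642 CPM, against 603 to 738 CPM in control, and of 6 tested 1 was higher and 1 lower in each single knockdown and 1 higher and 3 lower in the double knockdown. Acinar and ductal markers, 5 of 7 below 1 CPM, summed to 242 to 269, 183 to 200 and 236 to 249 CPM, against 246 to 259 CPM in control. Of 3 tested, 1 was higher in the Msi1 knockdown, 2 were lower in the Msi2 knockdown, and 2 were higher and 1 lower in the double knockdown. The part of these markers in the results was not tested. In bulk RNA, more cells in mitosis and more of these mRNAs per cell cannot be told apart.

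Mitotic mRNAs were higher in the double knockdown, mixed but mostly higher in the Msi2 knockdown, and lower or not called for all but 2 members in the Msi1 knockdown. Summed over the 45 members, levels were 5490, 5066 and 5201 CPM in Msi1 knockdown libraries, 6121, 5789 and 6248 in Msi2 knockdown libraries, 7130, 7380 and 7029 in double knockdown libraries, and 5651, 5445 and 5685 in control libraries. The double knockdown libraries were above all 9 others, the Msi2 knockdown libraries were above the control libraries, and the Msi1 knockdown and control libraries overlapped. Changes below are log2 values ± standard error from edgeR's quasi-likelihood test, and a gene is called where its p, adjusted over all 15021 genes, is below 0.05. Under both shRNAs 36 members rose and 0 fell, where 51.9% of all tested genes were called, 26.6% higher and 25.3% lower. No member fell at an unadjusted p below 0.05 either, nor in DESeq2. In the Msi2 knockdown 20 members rose and 6 fell (of all genes 30.3% were called, 16.7% higher and 13.6% lower), and in the Msi1 knockdown 2 rose and 13 fell (of all genes 39.3% were called, 18.5% higher and 20.9% lower). Median changes of the members were 0.34, 0.16 and −0.09 in the double, Msi2 and Msi1 knockdowns, beside −0.02, 0.00 and 0.00 over all genes. The 3 comparisons share their control libraries.

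**Figure D1:**
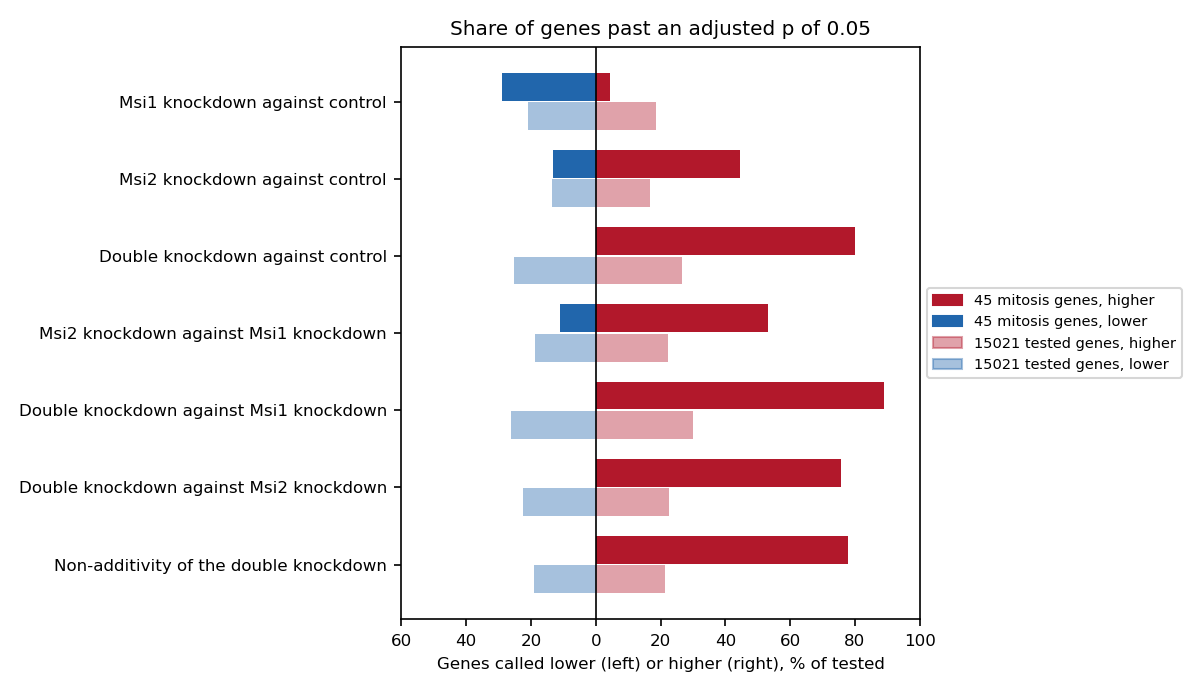
Share of genes called higher (right of 0) or lower (left of 0) in each comparison, in % of tested genes, for the 45 mitosis and spindle genes (solid bars) and all 15021 tested genes (pale bars). In the double knockdown against control 36 members were called higher and none lower, beside 26.6% and 25.3% of all genes.

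In the double knockdown against control, the change was largest in the genes of mitotic exit, and it took in all genes of mitotic entry and of the spindle checkpoint. UBE2C, the ubiquitin-conjugating enzyme that starts ubiquitin chains for the anaphase-promoting complex, had 238, 230 and 211 CPM in double knockdown libraries, against 99.3, 98.5 and 106 CPM in control libraries. UBE2S, which lengthens those chains, had 222, 199 and 190 CPM in double knockdown libraries, against 100, 93.1 and 96.2 CPM in control libraries. These were the 2 members that rose by 2-fold or more: UBE2C by 2.24-fold (log2 change 1.16 ± 0.09, adjusted p = 4.35e-09) and UBE2S by 2.11-fold (1.08 ± 0.08, adjusted p = 8.94e-09). CDC20, the activator of the complex, had 263, 251 and 232 CPM in double knockdown libraries, against 130, 129 and 150 CPM in control libraries. The libraries of CDC20 did not overlap, and its log2 change was 0.87 ± 0.08 (adjusted p = 5.21e-08). PTTG1, the securin that the complex destroys, rose by 0.82 ± 0.08, so all 4 members of this role were called, with a median of 0.97. Of the near-identical copies with which the authors' counting could split reads, PTTG2 had 0 and PTTG3P had 3 counts over all 12 libraries, and KIF4B, a copy of KIF4A, had 43.

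All 8 members of mitotic entry rose in the double knockdown, with a median log2 change of 0.50 and a range from 0.24 to 0.66. CDK1, the mitotic kinase, had 131, 140 and 125 CPM in double knockdown libraries, against 96.8, 93.2 and 92.0 CPM in control libraries, and rose by 0.49 ± 0.07 (adjusted p = 9.13e-06). CCNB1, its cyclin B partner, had 424, 423 and 407 CPM in double knockdown libraries, against 255, 258 and 287 CPM in control libraries, and rose by 0.65 ± 0.07 (adjusted p = 5.36e-07). For both genes every double knockdown library was above every control library. PLK1, the Polo-like kinase, had 122, 117 and 109 CPM in double knockdown libraries, against 78.1, 72.5 and 74.0 CPM in control libraries, and rose by 0.63 ± 0.07 (adjusted p = 9.76e-07). CCNA2 (cyclin A2) and CDC25B, a phosphatase that activates CDK1, marked the ends of the range in this role, at 0.66 and 0.24.

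Of the 6 Aurora and passenger members, 5 rose. AURKA, the centrosomal Aurora kinase, had 139, 140 and 127 CPM in double knockdown libraries, against 90.9, 86.9 and 98.5 CPM in control libraries, and rose by 0.56 ± 0.08 (adjusted p = 9.73e-06). BIRC5 (survivin) and AURKB, partners in the passenger complex, rose by 0.74 ± 0.09 and 0.60 ± 0.07. INCENP, the scaffold of the same complex, was the one not called: it had 62.1, 60.4 and 58.0 CPM in double knockdown libraries, against 64.9, 59.8 and 60.2 CPM in control libraries, and its libraries overlapped (−0.04 ± 0.06). The 4 checkpoint genes rose by 0.31 to 0.77, with MAD2L1, the checkpoint protein that binds CDC20, at the top.

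Among kinetochore genes 5 of 6 rose (median 0.29), among kinesins 6 of 8 (median 0.24), and among genes of spindle organisation and cytokinesis 4 of 6 (median 0.26). PRC1, which bundles the microtubules of the central spindle, had 165, 162 and 154 CPM in double knockdown libraries, against 105, 92.5 and 99.1 CPM in control libraries. Its libraries were well apart, and it rose by 0.70 ± 0.06 (adjusted p = 5.9e-08). KIF20A, a central spindle kinesin, rose by 0.71 ± 0.06 (adjusted p = 3.28e-08), with 132, 130 and 128 CPM in double knockdown libraries, against 83.0, 74.5 and 80.3 CPM in control libraries. KIF2C, a kinesin that depolymerises microtubules, rose by 0.63 ± 0.06 (adjusted p = 9.99e-08). The members not called were INCENP, CENPF, KIF11, KIF23, NUSAP1, ANLN, TOP2A, MKI67 and FOXM1, at log2 changes of −0.05 to 0.12. TOP2A (topoisomerase II alpha), MKI67 (the Ki-67 antigen) and FOXM1, a transcription factor of late cell cycle genes, made a role in which 0 of 3 were called, and 0 of 3 passed an unadjusted p of 0.05 in edgeR. FOXM1 had 158, 147 and 145 CPM in double knockdown libraries, against 159, 140 and 155 CPM in control libraries. MKI67 had 305, 344 and 341 CPM in double knockdown libraries, against 324, 324 and 323 CPM in control libraries. Both overlapped, with log2 changes of −0.01 ± 0.06 and 0.03 ± 0.08. Counting libraries in place of tests, 36 members had every double knockdown library above every control library, where 30.8% of all genes did.

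**Figure D2:**
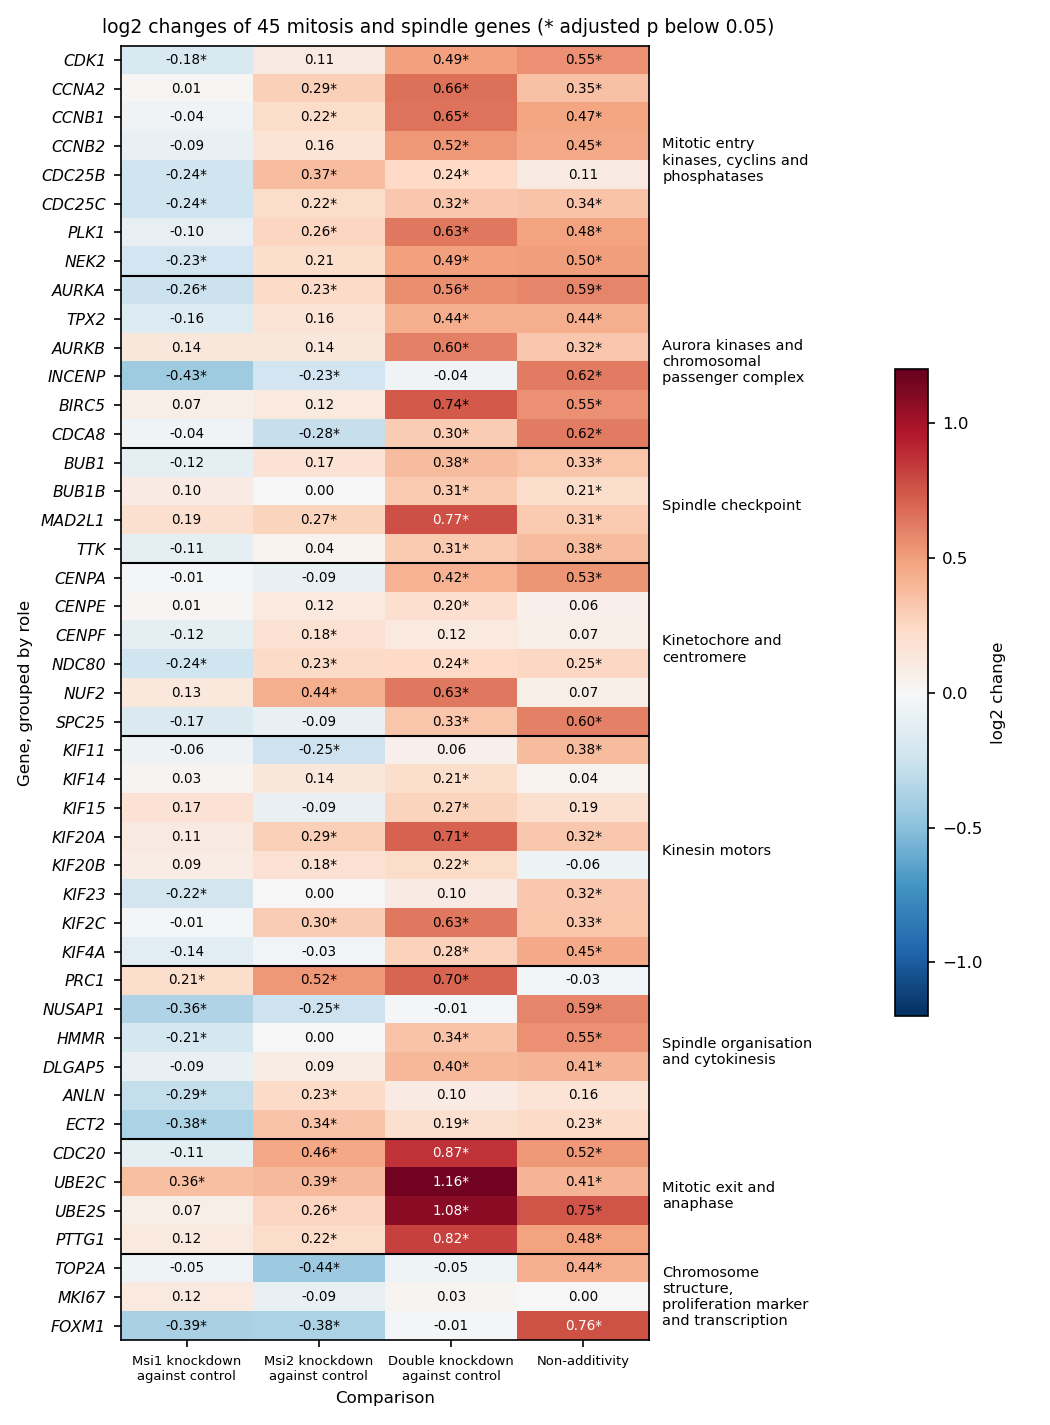
The log2 changes of the 45 genes (one line per gene, grouped by role) in each knockdown against control and in the non-additivity contrast, from −1.2 (blue) to 1.2 (red), with a star at an adjusted p below 0.05. The double knockdown column reaches 1.16 for UBE2C and 1.08 for UBE2S, while the 3 genes of the bottom group stay between −0.05 and 0.03.

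In the Msi2 knockdown against control, 20 members (44.4%) rose, by up to 1.43-fold, and 6 (13.3%) fell. Of all genes 16.7% were called higher and 13.6% lower, so the share of falls was near that of all genes. PRC1 and NUF2 had the smallest p among the rises, all 4 members of mitotic exit rose, and 3 of 6 kinetochore members did. PRC1 had 146, 136 and 144 CPM in Msi2 knockdown libraries, against 105, 92.5 and 99.1 CPM in control libraries (log2 change 0.52 ± 0.06, adjusted p = 5.27e-06). NUF2, a subunit of the NDC80 complex that ties kinetochores to microtubules, had 110, 114 and 125 CPM in Msi2 knockdown libraries, against 83.9, 87.0 and 86.8 CPM in control libraries (0.44 ± 0.07, adjusted p = 5.58e-05). Neither gene's libraries overlapped, but both were named for a small p, so this is not separate support. The share of all genes so placed is not given here. CDC20 (0.46 ± 0.08) and the other 3 members of mitotic exit were called, with a median of 0.32. The calls of UBE2S and PTTG1 (adjusted p = 0.0468 for PTTG1 in edgeR, with overlapping libraries) were not kept under every alternative run. CDC25B (0.37 ± 0.07), ECT2 (0.34 ± 0.06), the exchange factor that activates RhoA for cytokinesis, and KIF2C (0.30 ± 0.06) completed the 6 rises with the smallest p. In mitotic entry 5 of 8 members rose, among them CCNB1 (0.22 ± 0.07) and PLK1 (0.26 ± 0.07), while CDK1 was at 0.11 ± 0.07 (adjusted p = 0.229). AURKA rose by 0.23 ± 0.08, with libraries that overlapped those of control. The calls of CCNB1, PLK1 and AURKA were lost with libraries thinned to the smallest total (adjusted p = 0.0525, 0.0772 and 0.122 in edgeR) and without Msi2 replicate 1 or control replicate 2. Those of CCNB1 and AURKA were also lost without Msi2 replicate 3 or control replicate 1, and that of AURKA with a correction for transcript length.

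Of the 6 members that fell in the Msi2 knockdown, TOP2A and FOXM1 had the smallest p. TOP2A had 401, 376 and 389 CPM in Msi2 knockdown libraries, against 552, 510 and 517 CPM in control libraries, and fell by 0.44 on the log2 scale (SE 0.07, adjusted p = 5.08e-05). FOXM1 had 118, 112 and 119 CPM in Msi2 knockdown libraries, against 159, 140 and 155 CPM in control libraries, and fell by 0.38 (SE 0.06, adjusted p = 0.000158). Neither overlapped with control, which for genes named for a small p is not separate support. KIF11, the kinesin that pushes spindle poles apart, fell by 0.25, CDCA8 (borealin) by 0.28, INCENP by 0.23 and NUSAP1, a microtubule-bundling protein, by 0.25. The calls of INCENP and NUSAP1 were lost without control replicate 1. MKI67 was at −0.09 ± 0.08 (adjusted p = 0.432). All libraries gave 26 calls of members, and leaving out control replicate 1 gave 14 and control replicate 2 gave 17. With the within-group direction as a covariate, 29 members were called higher and 7 lower. CDK1 was then called at 0.14 (adjusted p = 0.0149 in edgeR) and MKI67 at −0.13 (adjusted p = 0.0258 in edgeR). These gains are not added support, since the covariate takes up within-group spread by construction.

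In the Msi1 knockdown against control 13 of the 15 called members fell, and INCENP, FOXM1 and ECT2 had the smallest p among them. The falls were 28.9% of the 45 members and the 2 rises 4.44%, beside 20.9% of all genes called lower and 18.5% higher. In both directions together, members were not called more often than all genes (39.3%). INCENP had 46.3, 45.4 and 46.2 CPM in Msi1 knockdown libraries, against 64.9, 59.8 and 60.2 CPM in control libraries, and fell by 0.43 (SE 0.06, adjusted p = 1.99e-05). FOXM1 had 121, 111 and 114 CPM in Msi1 knockdown libraries, against 159, 140 and 155 CPM in control libraries, and fell by 0.39 (SE 0.06, adjusted p = 6.53e-05). ECT2 had 296, 272 and 288 CPM in Msi1 knockdown libraries, against 372, 365 and 381 CPM in control libraries, and fell by 0.38 (SE 0.06, adjusted p = 8.14e-05). In none of the 3 did a knockdown library reach the control range. They were named for a small p, so this is not separate support, and the share of all genes so placed is not given here. NUSAP1, ANLN (anillin, a scaffold of the contractile ring) and KIF23 (a central spindle kinesin) fell by 0.36, 0.29 and 0.22, and 4 of the 6 genes of spindle organisation and cytokinesis were called lower. UBE2C rose by 0.36 ± 0.09 (149, 119 and 121 CPM in Msi1 knockdown libraries, against 99.3, 98.5 and 106 CPM in control libraries) and PRC1 by 0.21 ± 0.06. Among the genes of mitotic entry CDK1 fell by 0.18 with an adjusted p of 0.046, and CCNB1 and PLK1 were at −0.04 ± 0.07 and −0.10 ± 0.07. CDK1 lost its call in DESeq2 (adjusted p = 0.0506), under most other settings, and on leaving out any 1 of the 6 libraries compared except Msi1 replicate 1. AURKA fell by 0.26 (adjusted p = 0.0155 in edgeR), a call lost with the covariate and without Msi1 replicate 2 or 3 or control replicate 1 or 3. The call of PRC1 was lost without Msi1 replicate 1 or control replicate 2. MKI67 was at 0.12 ± 0.08 (adjusted p = 0.257). All libraries gave 15 calls, and 9 members were called without Msi1 replicate 3 and 9 without control replicate 3. With the within-group direction as a covariate, 10 members were called higher and 10 lower, and UBE2C was at 0.54.

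**Figure D3:**
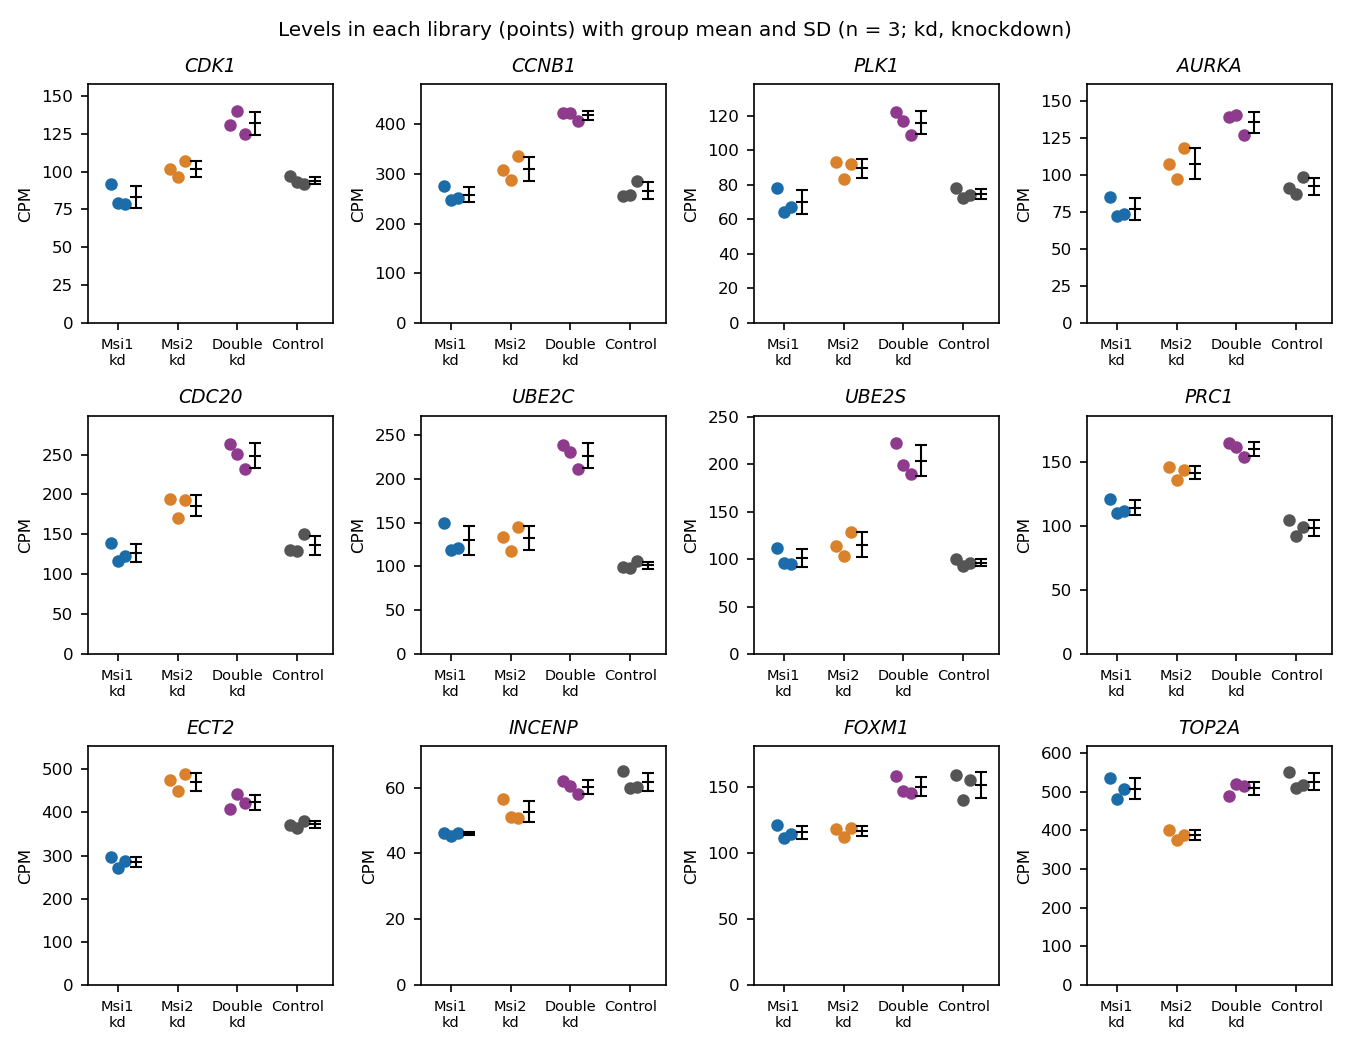
Counts per 1000000 (CPM) of 12 members in each library (points, 3 per group) with the group mean and SD beside them, for the Msi1, Msi2 and double knockdown and control. UBE2C, UBE2S and CDC20 are highest in the double knockdown, where they average 226, 204 and 248 CPM, and FOXM1 in control (151 CPM) and in the double knockdown (150 CPM) is above both single knockdowns.

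In the double knockdown against the Msi1 knockdown 40 members rose and 0 fell, where 56.0% of all genes were called, 29.9% higher and 26.2% lower, and the median change was 0.50. No fall passed an unadjusted p of 0.05 in edgeR or the adjusted one in DESeq2. CDC20 rose by 0.98 ± 0.08 (263, 251 and 232 CPM in double knockdown libraries, against 139, 117 and 123 CPM in Msi1 knockdown libraries), UBE2S by 1.01 ± 0.08, KIF2C by 0.64 ± 0.06 and AURKA by 0.82 ± 0.08, with adjusted p of at most 5.57e-07. With the within-group direction as a covariate, 24 members were called higher. In the double knockdown against the Msi2 knockdown 34 members rose and 0 fell (of all genes 45.2% were called, 22.7% higher and 22.5% lower), with a median of 0.32. ECT2 was lower at an unadjusted p below 0.05 in edgeR and was called lower by DESeq2, and with the covariate 17 members were called higher and 2 (CDC25B and ECT2) lower. UBE2S (0.82 ± 0.08), UBE2C (0.78 ± 0.08), CDCA8 (0.58 ± 0.06) and PTTG1 (0.60 ± 0.08) had the smallest p. CDC25B, ANLN and ECT2 had every double knockdown library below every Msi2 knockdown library, at −0.13, −0.13 and −0.15, where 27.7% of all genes were so placed, and none of the 3 was called.

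In the Msi2 knockdown against the Msi1 knockdown 24 members rose and 5 fell (of all genes 41.1% were called, 22.3% higher and 18.9% lower), and ECT2 and CDC25B had the smallest p. ECT2 had 476, 449 and 489 CPM in Msi2 knockdown libraries, against 296, 272 and 288 CPM in Msi1 knockdown libraries, and was 1.65-fold higher (0.73 ± 0.06, adjusted p = 3.88e-08). CDC25B (0.60 ± 0.07), ANLN (0.52 ± 0.06) and NDC80 (0.47 ± 0.06), the name-giving subunit of its kinetochore complex, were also higher, and all 8 members of mitotic entry were. TOP2A, KIF15, CDCA8 and KIF11 were lower, by 0.38, 0.26, 0.25 and 0.19 on the log2 scale. KIF15 and KIF11 are both plus-end kinesins of the bipolar spindle.

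The double knockdown was higher for most members than the sum of the single knockdowns. This non-additivity is the change (log2) under both shRNAs less the 2 single changes added together. It was called above 0 for 35 members and below 0 for 0, where 40.3% of all genes were called, 21.3% above 0 and 19.1% below. No member was below 0 at an unadjusted p of 0.05 in edgeR, and DESeq2 called none below 0. The median was 0.38, beside 0.01 over all genes. FOXM1 was at 0.76 ± 0.09 (adjusted p = 9.75e-06): it fell by 0.39 and 0.38 in the Msi1 and Msi2 knockdowns and was at −0.01 in the double knockdown. INCENP was at −0.43, −0.23 and −0.04 in the same order of knockdowns, with a non-additivity of 0.62 ± 0.09 (adjusted p = 4.38e-05). CDCA8 was also at 0.62 ± 0.09 (−0.04, −0.28 and 0.30), and UBE2S at 0.75 ± 0.12 (0.07, 0.26 and 1.08). PRC1 and NUF2, which rose in all 3 or in the Msi2 and double knockdowns, were at −0.03 ± 0.09 and 0.07 ± 0.09, and MKI67 was at 0.00 ± 0.11, though at 0.26 and called with the length correction (adjusted p = 0.0272) and at 0.35 with the covariate (adjusted p = 0.0614). With the position of each library on the within-group direction as a covariate, 4 members were called (INCENP, CDCA8, HMMR and FOXM1). No group is labelled as carrying 2 vectors with 1 or both scrambled. The double knockdown changes and non-additivity therefore cannot be told apart from effects of 2 vectors or of sorting on both tags.

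**Figure D4:**
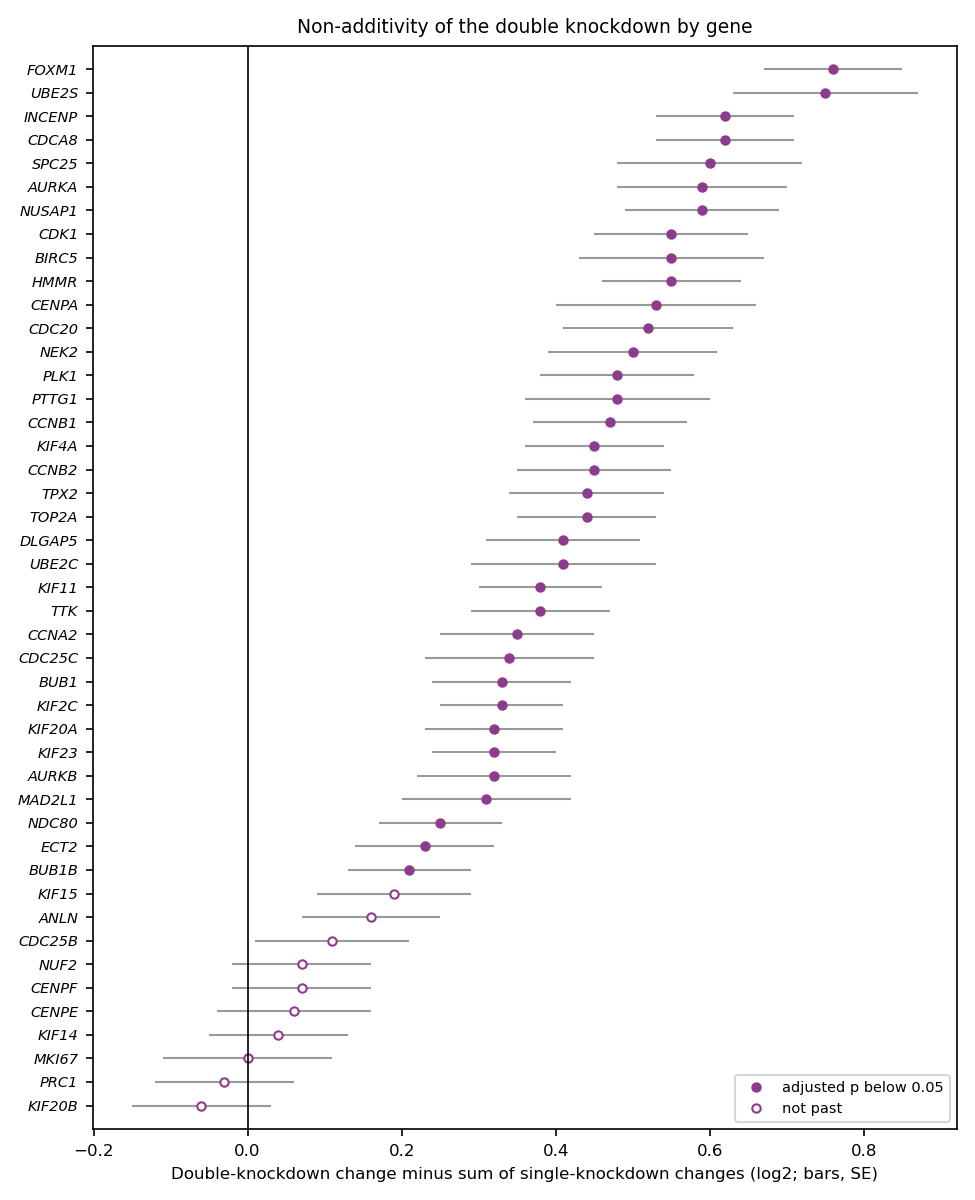
Non-additivity on the log2 scale (change under both shRNAs less the added single changes, with standard error) of the 45 members, sorted. Filled points have an adjusted p below 0.05: 35 members lie above 0 and none below it with such a p, with FOXM1 at 0.76 and UBE2S at 0.75 on top.

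Changes of the members in the double knockdown varied with transcript length. Lengths are those of the longest GENCODE 29 transcript, and members had a median of 3201 nucleotides (914 to 12678), beside 3535 over all tested genes. In the double knockdown the 15 shortest members had a median log2 change of 0.49 and 14 of them were called higher, the middle 15 had 0.40 with 13 called, and the longest 15 had 0.20 with 9 called. All genes of the same length ranges had medians of 0.12, 0.00 and −0.10, with 36.6%, 28.2% and 19.6% called higher. Across the 45 members, which share libraries, Spearman's rho between length and change was −0.56 in the double knockdown, −0.20 in the Msi2 knockdown and 0.03 in the Msi1 knockdown, and across all genes −0.21, 0.02 and −0.03. The slope of a library's log2 levels, relative to the mean of all 12, per doubling of length was between −0.090 and −0.040 in each double knockdown library and between −0.027 and 0.048 in each of the other 9. With length removed from each library, 40 members were called higher in the double knockdown, including all 36 of the uncorrected test, and UBE2C stayed at 1.02 and UBE2S at 1.07. MKI67, the longest member, was then at 0.25 (adjusted p = 0.00318), and with the within-group direction as a covariate it was at 0.21 and called. The split by promoter motif gave medians of 0.29 for the 28 members with TTTGAA and 0.63 for the 11 without it, in the double knockdown, which is a description with no test.

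**Figure D5:**
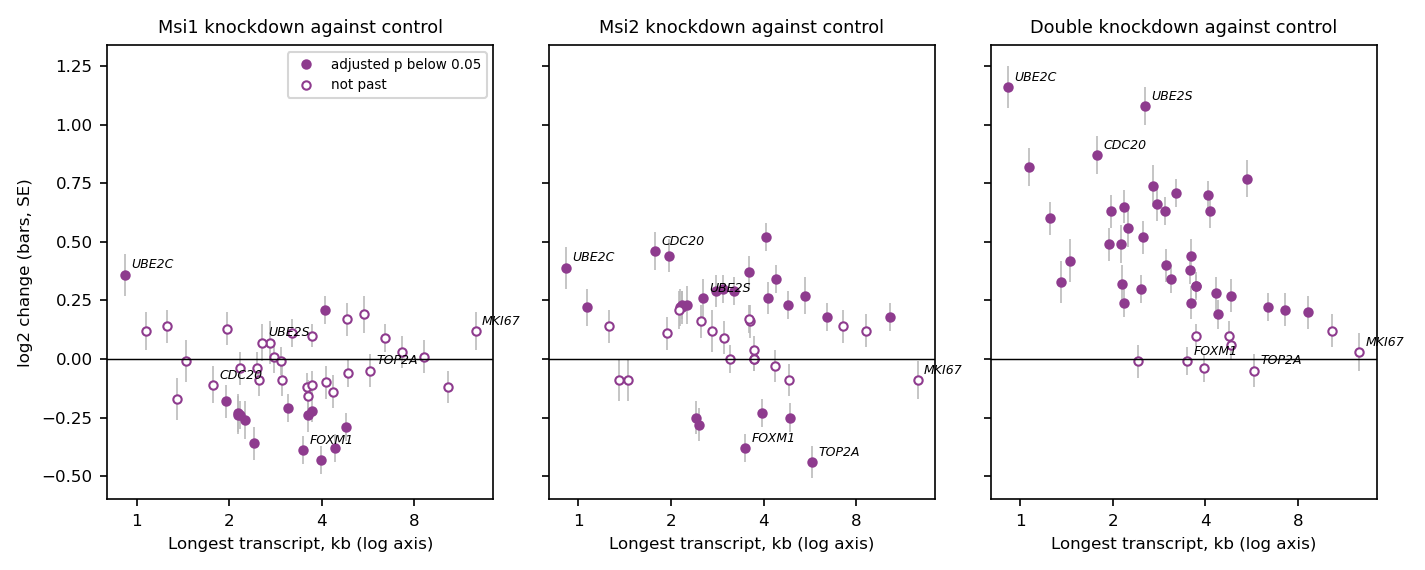
The log2 change of each of the 45 members (bars, standard error) against the length of its longest transcript in kb (log axis), for each of the 3 knockdowns against control. The short transcript of UBE2C (914 nucleotides, 1.16 in the double knockdown) and the long one of MKI67 (12678 nucleotides, 0.03) mark the ends.

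More genes rose than fell in most of the other lists of the mitotic pathway in the double knockdown, where 26.6% of all genes were called higher and 25.3% lower. Of 31 further spindle and centrosome genes 19 rose and 3 fell, led by the tubulins TUBA1C (0.69 ± 0.08) and TUBA1B (0.61 ± 0.08) and the kinesin KIF22 (0.47 ± 0.06). Of 31 further kinetochore and checkpoint genes 20 rose and 2 fell, with CENPQ, a centromere protein, at 0.70 ± 0.10 and TRIP13, which helps to disassemble the checkpoint complex, at 0.46 ± 0.07. Of 18 further regulators of mitotic entry and exit 13 rose and 0 fell, with the CDK subunits CKS1B (0.81 ± 0.08) and CKS2 (0.72 ± 0.09) and the CDK1 inhibitory kinase PKMYT1 (0.59 ± 0.07). No gene of that list fell at an unadjusted p of 0.05 in edgeR, and DESeq2 was not summarised for the lists. The list of condensin, cohesin and chromatid separation had 9 higher and 4 lower of 21, with CDCA5 (sororin) at 0.52 ± 0.08 and the cohesin subunit STAG1 at −0.42 ± 0.07. Of 16 genes of the anaphase-promoting complex and its regulators 6 rose and 2 fell, among 13 tested cytokinesis genes 7 rose and 1 fell, and among 15 genes of transcription control 3 rose and 3 fell (20% each, near the shares of all genes), MYBL2 (B-MYB) at 0.46 ± 0.07 and MYBL1 at −0.44 ± 0.07. Genes of G1/S and replication moved as well, with 27 higher and 2 lower of 38 and RRM2, a ribonucleotide reductase subunit, at 1.03 ± 0.08. Median log2 changes were 0.21 for spindle, 0.26 for kinetochore, 0.32 for entry and exit, 0.13 for condensin and cohesin, 0.17 for the anaphase-promoting complex, 0.23 for cytokinesis, 0.05 for transcription control and 0.31 for G1/S and replication, beside −0.02 over all genes and 0.34 over the 45 members.

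In each single knockdown all 8 of these lists had fewer genes called higher than in the double knockdown, as did all genes. In the Msi1 knockdown, where 18.5% of all genes were called higher and 20.9% lower, the counts higher and lower were 5 and 9 of 31 for further spindle genes, 5 and 5 of 31 for further kinetochore genes, 2 and 3 of 18 for entry and exit and 0 and 9 of 21 for condensin and cohesin (1 higher at an unadjusted p of 0.05 in edgeR). They were 2 and 4 of 16 for the anaphase-promoting complex, 3 and 3 of 13 for cytokinesis, 2 and 6 of 15 for transcription control and 7 and 6 of 38 for G1/S and replication, so that the kinetochore and G1/S shares were close to those of all genes. STAG2, a cohesin subunit, fell by 0.51 (SE 0.06) and HAUS1, of the augmin complex, by 0.71 (SE 0.08). In the Msi2 knockdown, where 16.7% of all genes were called higher and 13.6% lower, the counts in the same order of lists were 7 and 1, 3 and 4, 5 and 2, and 2 and 3, then 0 and 3, 4 and 0, 1 and 4, and 2 and 9. At an unadjusted p of 0.05 in edgeR 1 gene of the anaphase-promoting complex list was higher and 0 of the cytokinesis list were lower. Among them were STAG1 at −0.55 ± 0.07, TUBA1C at 0.34 ± 0.08 and MCM4, a subunit of the replicative helicase, at −0.47 ± 0.06. The 8 tested cell cycle inhibitors had 2 higher and 6 lower in the Msi1, 1 and 2 in the Msi2 and 2 and 4 in the double knockdown. Their median log2 changes were −0.67, −0.01 and 0.03, so the list as a whole did not rise. Among them CDKN1A (p21), an inhibitor of cyclin-dependent kinases, was higher in each knockdown: it averaged 13.9 ± 1.12 CPM (Msi1 knockdown), 8.84 ± 0.612 CPM (Msi2 knockdown) and 23.5 ± 1.26 CPM (double knockdown), against 6.07 ± 0.736 CPM in control (SD, n = 3 each). Its log2 changes were 1.20 ± 0.10, 0.54 ± 0.10 and 1.95 ± 0.10 with adjusted p of at most 0.000553.

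Compared with one another per kilobase of transcript, UBE2C and CCNB1 were the most abundant members in each group. UBE2C averaged 142, 145, 248 and 111 CPM per kb in the Msi1, Msi2 and double knockdowns and control, and CCNB1 119, 143, 193 and 123, with UBE2C above CCNB1 in the knockdowns and below it in control. In the Msi2 knockdown the gap between these 2 genes was within the spread of the libraries. KIF15 was the least abundant in every group, at 5.44 to 7.01 CPM per kb. A longest transcript may not be the one these cells use.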

How the data were processed

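The authors deposited estimated counts (whole numbers, unscaled) for each gene. The submitters' processing notes list kallisto 0.42.1, CASAVA 1.4 and hg19 with no role for each. The sources used here do not give the transcript set or whether strand was kept. Libraries held 10948191 to 56122207 counts, and precision here is set by the spread between libraries, since replicates differed by more than sampling noise (chi-square per degree of freedom 3.82 to 36.5). Genes were filtered with filterByExpr (minimum count 10) and tested with edgeR 4.0.16 in R 4.3.3 (TMM factors, robust quasi-likelihood, 4 group means over 12 libraries, 8 residual degrees of freedom, two-sided, Benjamini-Hochberg over 15021 genes, threshold 0.05). CPM are counts per 1000000 of the TMM-scaled total, given as mean ± SD. With 3 libraries in each group, the smallest exact permutation p is 0.1. The script was tested on simulated counts, drawn with few changed genes and no shared within-group direction. That test therefore does not speak for error rates in these data. The alternatives were other factors and filters, thinning to the smallest total, DESeq2 1.42.0, the replicate number as a block, each library left out, the within-group direction as a covariate and, chosen after seeing the data, length and GC corrections. The 45 members and the pathway lists were chosen with earlier results of these data known. Named members were up to 6 called in each direction with the smallest p against control (up to 4 in other comparisons) and CDK1, CCNB1, PLK1, AURKA, FOXM1 and MKI67. Other members are named to account for the list, with their values in view. Replicate numbers paired the libraries only in part and entered the test only as an alternative. Promoters are from RefSeq (GRCh38.p14), of another build than hg19.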

Additional observations from a re-analysis of the deposited data

Results flagged for a closer look

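In 8 named members the double knockdown differed from the sum of the single knockdowns by a test of that difference (edgeR, adjusted over all 15021 genes, n = 3 libraries per group). Non-additivity on the log2 scale was 0.76 for FOXM1 (adjusted p = 9.75e-06), 0.75 for UBE2S (0.000137), 0.62 for INCENP (4.38e-05) and 0.62 for CDCA8 (7.89e-05). It was 0.59 for AURKA (0.00059), 0.55 for CDK1 (0.000313), 0.48 for PLK1 (0.00155) and 0.47 for CCNB1 (0.00153). With the within-group direction as a covariate, FOXM1 was at 0.51, INCENP at 0.55 and CDCA8 at 0.34 and were called, while UBE2S was at 0.28, CDK1 at 0.28, AURKA at 0.14, PLK1 at 0.13 and CCNB1 at 0.16 and were not.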

How the results depend on the processing

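With 1 library left out, 32 to 37 members were called in the double knockdown against control. The same omissions gave 9 to 20 calls of members for Msi1 against control, 14 to 28 for Msi2 against control (3013 to 4249 over all genes), 23 to 33 between the single knockdowns, 37 to 41 and 29 to 34 for the double against the Msi1 and the Msi2 knockdown, and 28 to 35 for non-additivity. Under every alternative run, 25 of the 36 rises in the double knockdown against control were kept. For Msi2 against control 9 of 20 rises and 4 of 6 falls were kept, and for Msi1 1 of 2 rises and 7 of 13 falls. Between the single knockdowns 18 of 24 rises and 4 of 5 falls were kept. For the double against the Msi1 and the Msi2 knockdown 23 of 40 and 16 of 34 rises were kept, and for non-additivity 4 of 35. With the within-group direction as a covariate, 24 members (718 of all genes) were called in the double against the Msi1 knockdown, 19 (2697) against the Msi2 knockdown and 4 (592) for non-additivity, and the cause was not tested. The replicate numbers paired the samples only in part (correlations of deviations −0.54 to 0.70, 10 of 18 pairs above 0.1, 7 of 12 libraries closest to their own number). Among replicate 2 libraries the correlations were 0.70 (Msi1 and Msi2), 0.59 (Msi1 and control) and 0.68 (Msi2 and control). Those of double knockdown replicate 2 with these libraries were −0.1 to −0.02. The replicate block gave 16, 28 and 36 calls of members for the Msi1, Msi2 and double knockdown, 30, 40 and 35 between knockdowns and 35 for non-additivity. Most named genes were chosen for a small p in these data, so a tally over them does not speak for the other members. Of 1156 values of named genes under alternatives, 1100 kept direction and call, 40 lost their call, 6 gained one and 10 changed sign, all of these uncalled. For Msi1 against control these were CCNB1 at 0.07, PLK1 at 0.02 and MKI67 at −0.01 with the covariate, and CCNB1 with 1 library left out (−0.09 to 0.02). For the double knockdown they were MKI67 at −0.01 (stricter filter), 0.00 (thinned) and −0.02 to 0.09 (1 library left out), and FOXM1 at 0.03 (length correction) and −0.09 to 0.03 (1 library left out). The cause was not tested. With all libraries thinned to the 10948191 counts of control replicate 3, the fewest, 14, 23 and 33 members were called in the Msi1, Msi2 and double knockdown.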
